A study of Mus musculus with 12 samples.

Results

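The genes described are the 32 enzymes, regulators and carriers that take glucose to pyruvate and lactate or bring pyruvate into the mitochondrial matrix, out of 20201 genes in the deposited table. They were taken by name from a list, and the rule uses no measured value. All 32 were found under an Ensembl identifier and all 32 reached the minimum level for testing, a mean of 10 normalised counts over the 12 libraries. They comprise 19 glycolytic enzymes and lactate dehydrogenase subunits, 4 regulators (Pfkfb2, Pfkfb3, Pfkfb4 and Tigar), 7 genes of pyruvate entry (Mpc1, Mpc2, Pdha1, Pdhb, Dlat, Dld and Pdp1) and 2 glycerol phosphate dehydrogenases (Gpd1 and Gpd2). Of the 19, the forms enriched in muscle are Hk2, Pfkm, Aldoa, Pgam2, Eno3 and Ldha. The other forms of the same enzymes are Hk1, Pfkl, Pfkp, Aldoc, Pgam1, Eno1, Eno2 and Ldhb, and 5 steps had a single listed form (Gpi1, Tpi1, Gapdh, Pgk1 and Pkm).

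RNA came from mouse primary myotubes, the multinucleated muscle cells that cultured myoblasts form when they fuse, grown from mice with a floxed Bmal1 gene (Arntl), the activator of the circadian clock. Per the design text, an adenovirus carrying Cre, or an empty one, was left on the cells for 48 h, and the cultures then spent 6 h in 1% O2 or 21% O2, which makes 4 conditions. The labels of the 12 libraries name only 2 groups: 6 Bmal1 knockout libraries labelled 1% O2 and 6 wildtype libraries labelled 21% O2. In these labels genotype and oxygen cannot be told apart, and the oxygen label may not hold for every library, given the levels of oxygen-regulated genes below. The titles number the libraries in 4 runs of 3, each run of 1 label: Myotube10 to Myotube12 (knockout run 2), Myotube7 to Myotube9 (wildtype run 2), Myotube4 to Myotube6 (knockout run 1) and Myotube1 to Myotube3 (wildtype run 1). The run numbers come from the titles, and no oxygen level was assigned to a run. The runs were chosen with earlier results of these data known, so the split behind their p-values was not blind to the data. All cells, the wildtype ones included, carried the floxed allele and a virus. The promoter that drives Cre, the share of cells that recombined, the strain, sex, age and number of the mice and any culture batch are not given in the sources used here, so p-values measure no more than how far these libraries of a run lie apart, which may be technical.

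Glycolysis splits a glucose molecule into pyruvate and yields ATP without oxygen. Hexokinases trap glucose in the cell, phosphofructokinase commits it to the pathway, and the lower steps from aldolase to pyruvate kinase recover ATP. Lactate dehydrogenase turns pyruvate into lactate and returns the NAD+ that Gapdh needs. Pyruvate that is to be oxidised enters the mitochondrion through the carrier formed by Mpc1 and Mpc2 and meets the pyruvate dehydrogenase complex, which is switched off by phosphorylation and on again by the phosphatase that Pdp1 encodes. Skeletal muscle uses forms of several enzymes that most other tissues lack or hold at low levels. Many glycolytic genes are known targets of the hypoxia-inducible factors, whose binding core reads ACGTG or GCGTG, and BMAL1 with its partner CLOCK binds the E-box CACGTG.

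Promoter windows, the 250 bases before an annotated start in RefSeq on build GRCm38.p6, were found for 30 of the 32 genes, with 46 windows in all because some genes have several starts. ACGTG on either strand was present in 15 of 46 windows (32.6%) of the listed genes, against 5444 of 32851 windows (16.6%) of all annotated genes. GCGTG on either strand stood in 23 of 46 windows (50%), against 9250 of 32851 windows (28.2%) of all genes, and CACGTG in 4 of 46 windows (8.70%), against 1978 of 32851 windows (6.02%). CACGTG reads the same on both strands and so also holds ACGTG on each of them. Among the 15 genes that rose in run 2 of both labels, given below, 9 of 24 windows (37.5%) held ACGTG, against 6 of 22 windows (27.3%) of the remaining members. For GCGTG the shares were 12 of 24 windows (50%) and 11 of 22 windows (50%). These are matches of letters, not binding sites. The windows of 5 genes that stand for the patterns reported are printed 5′ to 3′ on the strand of the gene, with each ACGTG and each GCGTG, read on either strand, in capitals. Where a gene had several annotated starts, the window with the most ACGTG was taken, so it need not be that of the longest transcript. Pfkfb3 (chr2:11502091-11502340, minus strand) and Hk2 (chr6:82774455-82774704, minus strand) had the largest rises among the regulators and among the muscle forms, Ldha (chr7:46845554-46845803, plus strand) held the most matches of the 5, Pgk1 (chrX:106186850-106187099, plus strand) is a single-form step, and Pgam2 (chr11:5803797-5804046, minus strand) is the muscle form with the largest difference between labels.
Pfkfb3: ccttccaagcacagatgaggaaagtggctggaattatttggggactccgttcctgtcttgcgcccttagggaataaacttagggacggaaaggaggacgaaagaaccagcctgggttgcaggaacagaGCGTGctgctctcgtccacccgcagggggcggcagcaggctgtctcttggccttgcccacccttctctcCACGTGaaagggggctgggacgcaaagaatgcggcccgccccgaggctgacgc
Hk2: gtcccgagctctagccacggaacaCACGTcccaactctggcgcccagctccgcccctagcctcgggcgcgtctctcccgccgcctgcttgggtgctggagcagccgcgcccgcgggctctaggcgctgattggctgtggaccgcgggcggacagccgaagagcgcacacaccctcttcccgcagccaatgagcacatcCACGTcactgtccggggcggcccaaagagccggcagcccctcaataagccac
Ldha: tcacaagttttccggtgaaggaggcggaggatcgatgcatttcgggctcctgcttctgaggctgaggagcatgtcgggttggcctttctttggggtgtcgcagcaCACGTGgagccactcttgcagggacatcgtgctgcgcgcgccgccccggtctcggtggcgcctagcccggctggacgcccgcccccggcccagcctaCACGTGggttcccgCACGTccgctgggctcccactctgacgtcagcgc
Pgk1: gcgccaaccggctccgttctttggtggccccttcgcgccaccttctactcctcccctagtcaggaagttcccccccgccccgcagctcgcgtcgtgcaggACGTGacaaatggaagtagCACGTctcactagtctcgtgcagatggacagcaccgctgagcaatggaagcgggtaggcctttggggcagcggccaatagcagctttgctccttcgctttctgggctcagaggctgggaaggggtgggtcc
Pgam2: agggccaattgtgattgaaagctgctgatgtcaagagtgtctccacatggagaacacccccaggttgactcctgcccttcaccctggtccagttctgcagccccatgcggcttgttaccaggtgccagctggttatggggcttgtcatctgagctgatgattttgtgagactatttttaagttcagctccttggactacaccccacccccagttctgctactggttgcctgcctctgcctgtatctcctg
The Ldha window held ACGTG 5 times counted over both strands, including 2 copies of CACGTG. Pfkfb3 held 1 copy of CACGTG and 1 of GCGTG, and Hk2 and Pgk1 held ACGTG 2 times each without CACGTG. None of the 3 motifs was in the Pgam2 window, which says only that these letters are not in those 250 bases.

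Arntl, the floxed gene, averaged 44.7 ± 2.85 normalised counts in knockout libraries and 157 ± 19.3 in wildtype libraries (SD, n = 6 each), with no overlap (two-sided exact permutation test, p = 0.00216, the smallest that 924 relabellings allow; adjusted p = 0.00519 over 12 genes). Of 7 genes that low oxygen is known to induce, none passed between the labels by the same permutation test, which ignores the runs (exact p = 0.571 to 0.864). By limma, with a mean for each run, Ankrd37 was lower in knockout libraries at -0.49 (adjusted p = 0.0182), and Pdk1 and Bnip3 were higher at 0.20 and 0.13 (adjusted p = 0.0212 and 0.0392) on the log2 scale. All 7 were higher in each of Myotube7 to Myotube12 than in any of Myotube1 to Myotube6, and so split the libraries of each oxygen label. These levels go against the oxygen label for some libraries. Label differences are therefore given by genotype label alone, with the oxygen of each library not known. Egln3, which encodes a prolyl hydroxylase that acts on the hypoxia-inducible factors, lay at 2036 to 2143 in knockout run 2 and 2199 to 2258 in wildtype run 2, against 194 to 262 in knockout run 1 and 241 to 270.3 in wildtype run 1. Libraries held 6376584 to 12463339 reads. Myotube2 and Myotube10 were the shallowest, and Myotube2 had 29.6% of genes at 0, against 13.0% to 21.9% in the others. Markers of myotubes were present in every library, with a summed level over 12 genes of 28540.0 to 31907 in knockout libraries and 15336 to 20705 in wildtype libraries. Fibroblast markers summed to 81172 to 112738 in knockout libraries and 83938 to 99012 in wildtype libraries, mostly from the collagen genes Col1a1 and Col3a1. Leukocyte markers summed to at most 54.4 and the adipocyte markers in the table to at most 1.76 normalised counts. Adipoq and Cfd were at 0 in every knockout library, Ptprc in wildtype run 1 and Adgre1 in knockout run 2.

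Per kilobase of the principal transcript, the levels spanned a wide range. Gapdh was highest at 10558 normalised counts per kb (mean of 12 libraries), followed by Aldoa at 6811, Pkm at 4989.9, Ldha at 4326 and Eno1 at 3275. These 5 thus stood above both hexokinases, Hk1 at 557 and Hk2 at 121 per kb, and above the phosphofructokinase subunits, at 255 (Pfkm) to 353 (Pfkp). Pyruvate dehydrogenase subunits lay between 85 (Dlat) and 390.0 (Pdha1) per kb. At the low end were Eno2, the neuronal enolase, at 10.2 and Pfkfb2 at 9.38 per kb. Gapdh and several other members have processed pseudogenes, and the counting program divides reads that match several genes by estimate, so their levels carry that uncertainty.

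Together the 32 genes took 2.14% to 2.20% of the reads in knockout run 2 and 1.97% to 2.07% in wildtype run 2, against 1.59% to 1.75% in knockout run 1 and 1.35% to 1.43% in wildtype run 1. These shares leave out 6 very abundant genes, among them the mitochondrial ribosomal RNAs, that held 46.3% to 64.0% of each library. The shares of the 4 runs did not overlap. In bulk RNA, a change in RNA per cell and a change in the share of cells that make it cannot be told apart.

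**Figure D1:**
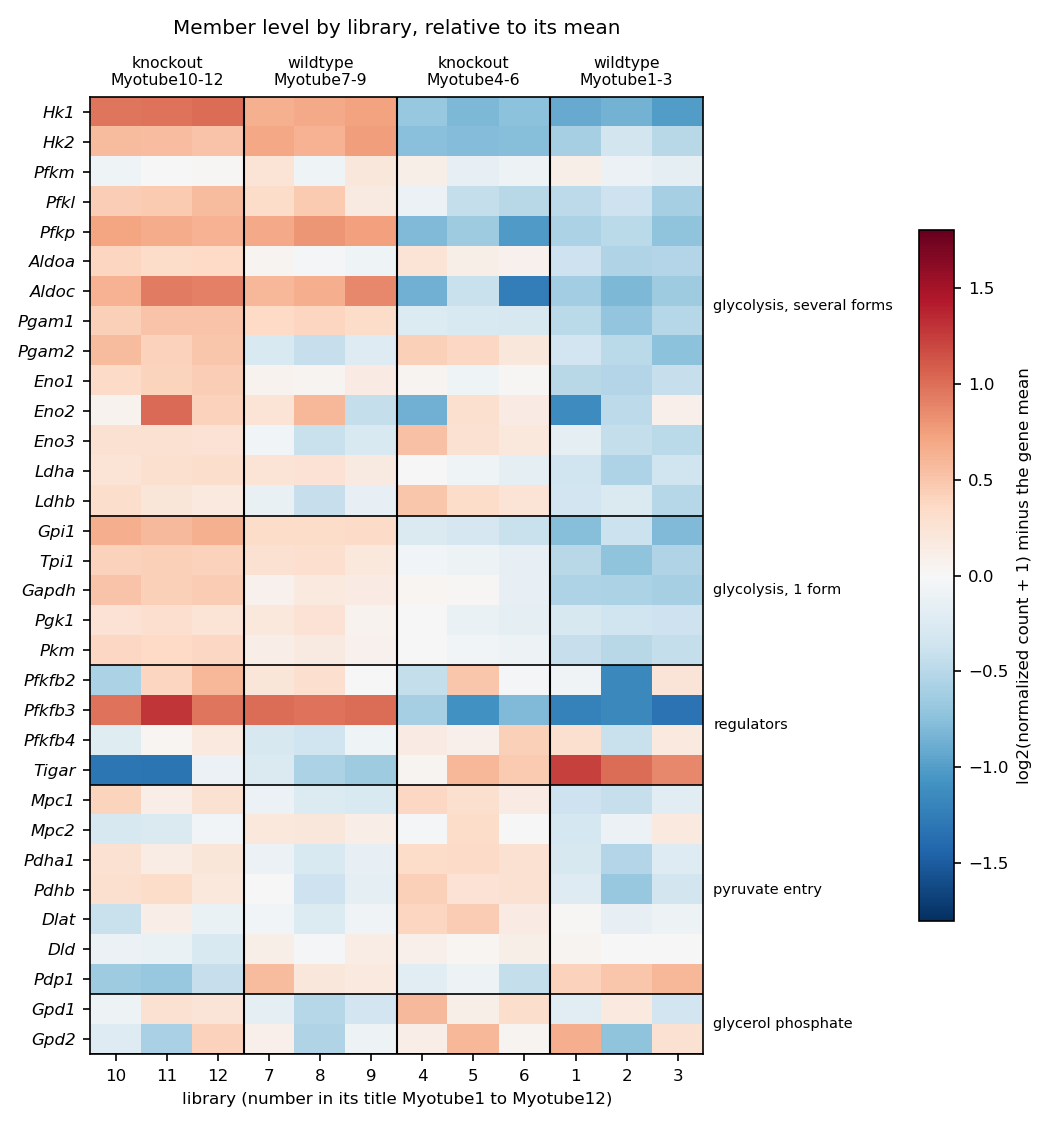
Level of each of the 32 genes (lines, grouped by class) in each of the 12 libraries (columns, by number in the title, in the order knockout run 2, wildtype run 2, knockout run 1, wildtype run 1), as log2(normalised count + 1) minus the mean of that gene. Most glycolytic enzymes are above their mean in Myotube7 to Myotube12 and below it in Myotube1 to Myotube6, whereas Pgam2, Eno3, Ldhb, Pdha1, Pdhb and Mpc1 are higher in both knockout runs than in either wildtype run.

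Run 2 was first compared with run 1 inside each label, which asks how the glycolytic genes differ between libraries that carry the same label. Of the 32 members, 15 were higher in run 2 of the knockout libraries and the same 15 in run 2 of the wildtype libraries: Hk1, Hk2, Gpi1, Pfkl, Pfkp, Aldoa, Aldoc, Tpi1, Gapdh, Pgk1, Pgam1, Eno1, Pkm, Ldha and Pfkfb3. Of all 12553 genes tested, 11.2% were higher in the knockout comparison, 9.79% in the wildtype comparison and 7.19% in both. Lower in run 2 were Tigar, Dlat and Dld in knockout libraries (7.89% of all genes) and Tigar alone in wildtype libraries (6.96%). Tigar was thus lower in both, as were 3.82% of all genes. Calls were made with limma on log2(normalised count + 1) at an adjusted p of 0.05 over all genes tested, with n = 3 libraries in each run. The median log2 difference over the members was 0.19 in knockout libraries and 0.49 in wildtype libraries, against -0.02 and 0.01 over all genes. Taking both labels together, 14 members (all the risers but Aldoa) were higher in each of the 6 libraries Myotube7 to Myotube12 than in any of Myotube1 to Myotube6, a pattern that 7.79% of all genes showed, and Tigar was lower in the same way (4.65%). Inside the labels, runs did not overlap for 15 members that were higher and 4 that were lower in knockout libraries (all genes 19.9% and 19.9%), and for 15 higher and 1 lower in wildtype libraries (17.6% and 16.3%).

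The rises followed the classes unevenly. All 5 single-form steps rose in both labels, as did 6 of the 8 other forms and 3 of the 6 muscle-enriched forms (Hk2, Aldoa and Ldha). Of all genes tested, 7.19% did. Pfkm, Pgam2 and Eno3, which encode the muscle phosphofructokinase subunit, phosphoglycerate mutase and enolase, did not pass in either label, and neither did Eno2 or Ldhb. Of the regulators, Pfkfb3 rose and Tigar fell. None of the 7 genes of pyruvate entry and neither glycerol phosphate dehydrogenase passed as higher in either label. At the share of all genes, groups this small would hold few or no risers.

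The largest rise among the members was that of Pfkfb3 (ENSMUSG00000026773, chromosome 2, 11471433 to 11554077 on GRCm38), which encodes the enzyme that makes fructose 2,6-bisphosphate, a potent activator of phosphofructokinase. Pfkfb3 had 549.8, 680.5 and 544 normalised counts in knockout run 2, against 184, 131 and 161 in knockout run 1, and 561, 551 and 563 in wildtype run 2, against 119.7, 124 and 110.2 in wildtype run 1. Every library of run 2 was above every library of run 1. The log2 difference was 1.90 ± 0.13 in knockout libraries (limma adjusted p = 3.19e-07) and 2.24 ± 0.13 in wildtype libraries (adjusted p = 1.07e-07). Tigar (ENSMUSG00000038028, chromosome 6, 127085116 to 127109557 on GRCm38), which encodes an enzyme that breaks fructose 2,6-bisphosphate down, moved the other way and was the single member that fell in both labels. Tigar had 13.6, 13.5 and 32.4 normalised counts in knockout run 2, against 36.3, 53.5 and 48.8 in knockout run 1, and 29.2, 23.3 and 22.1 in wildtype run 2, against 83.6, 71.2 and 64.5 in wildtype run 1. All 6 values of run 2 lay below all 6 of run 1, with 3 reads worth 2.12 to 5.85 normalised counts depending on the library, a floor that covers counting error only. The difference was -1.28 ± 0.31 in knockout libraries (limma adjusted p = 0.0116) and -1.52 ± 0.31 in wildtype libraries (adjusted p = 0.00471). In knockout libraries it missed the threshold without Myotube5 or without Myotube11 (adjusted p = 0.0505 to 0.0516). Pfkfb2 and Pfkfb4, the other listed forms of the Pfkfb3 enzyme, passed in neither label, with 95% intervals of -0.73 to 0.98 in knockout libraries and -0.35 to 1.36 in wildtype libraries for Pfkfb2, and of -0.71 to 0.25 and -0.74 to 0.21 for Pfkfb4.

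At the first step, both hexokinases rose. Hk1 had 3455, 3481 and 3559.7 normalised counts in knockout run 2, against 1103, 1016 and 1060.4 in knockout run 1, and 2757, 2855 and 2939.9 in wildtype run 2, against 949, 982 and 880.1 in wildtype run 1. Hk2 had 907, 896 and 873 normalised counts in knockout run 2, against 363, 355 and 359 in knockout run 1, and 985, 943 and 1024 in wildtype run 2, against 401, 485 and 433 in wildtype run 1. For both genes the runs were far apart next to the spread within them. The log2 difference of Hk1 was 1.72 ± 0.06 in knockout libraries (limma adjusted p = 8.87e-10) and 1.61 ± 0.06 in wildtype libraries (adjusted p = 1.93e-09). For Hk2, the muscle form that insulin and contraction are known to induce, it was 1.31 ± 0.08 in knockout libraries (limma adjusted p = 9.91e-08) and 1.16 ± 0.08 in wildtype libraries (adjusted p = 3.49e-07). Gpi1, which encodes the isomerase between glucose 6-phosphate and fructose 6-phosphate, followed. Gpi1 had 6019, 5726 and 5939 normalised counts in knockout run 2, against 3181, 3099 and 2896 in knockout run 1, and 4806, 4779.6 and 4813 in wildtype run 2, against 2249, 2899 and 2204 in wildtype run 1. Its difference was 0.95 ± 0.09 in knockout libraries (limma adjusted p = 6.78e-06) and 0.98 ± 0.09 in wildtype libraries (adjusted p = 6.32e-06).

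Of the 3 phosphofructokinase subunits, the platelet form Pfkp and the liver form Pfkl rose and the muscle form Pfkm did not pass. Pfkp had 2129, 2072 and 2009 normalised counts in knockout run 2, against 752, 834 and 641 in knockout run 1, and 2089.9, 2259.6 and 2166 in wildtype run 2, against 876, 928 and 787 in wildtype run 1. Pfkl had 1517, 1540.0 and 1658 normalised counts in knockout run 2, against 1033, 829.9 and 791 in knockout run 1, and 1403, 1551 and 1250.5 in wildtype run 2, against 804, 861 and 733 in wildtype run 1. Again no library of run 1 reached the lowest of run 2. The log2 difference was 1.49 ± 0.09 in knockout libraries (limma adjusted p = 1.77e-07) and 1.33 ± 0.09 in wildtype libraries (adjusted p = 5.42e-07) for Pfkp. For Pfkl it was 0.84 ± 0.11 in knockout libraries (limma adjusted p = 0.000113) and 0.81 ± 0.11 in wildtype libraries (adjusted p = 0.00018). Pfkm averaged 706 ± 24.2 in knockout run 2, against 695 ± 63.5 in knockout run 1, and 783 ± 89.8 in wildtype run 2, against 688 ± 68.5 in wildtype run 1 (SD, n = 3 each). The 95% interval of its difference was -0.19 to 0.25 in knockout libraries and -0.04 to 0.40 in wildtype libraries, below the point estimates of Pfkp and Pfkl in both labels.

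Among the aldolases, Aldoc, the form best known from brain, rose by more on the log2 scale than Aldoa, the muscle form, from a far lower level. Aldoc had 64.3, 80.0 and 78.2 normalised counts in knockout run 2, against 22.3, 31.1 and 16.9 in knockout run 1, and 62.8, 65.8 and 76.4 in wildtype run 2, against 26.4, 23.2 and 26.2 in wildtype run 1. The runs did not overlap, and the log2 difference was 1.66 ± 0.23 in knockout libraries (limma adjusted p = 0.000192) and 1.40 ± 0.23 in wildtype libraries (adjusted p = 0.000845). Aldoa averaged 12657 ± 249 in knockout run 2, against 10943 ± 735 in knockout run 1, and 9784 ± 449 in wildtype run 2, against 7087 ± 455 in wildtype run 1. Its difference was 0.21 ± 0.07 in knockout libraries (limma adjusted p = 0.0412) and 0.47 ± 0.07 in wildtype libraries (adjusted p = 0.000321). The knockout call was lost in 12 of the alternative settings, with adjusted p up to 0.242, including the sets without Myotube5, Myotube6, Myotube8, Myotube10, Myotube11 or Myotube12.

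Down the lower pathway the rises were smaller in log2 terms and passed in both labels. Pgam1, the widely expressed phosphoglycerate mutase, rose most. Pgam1 had 4812, 5096 and 5139.8 normalised counts in knockout run 2, against 3033, 2954 and 2921 in knockout run 1, and 4577, 4681 and 4523 in wildtype run 2, against 2571, 2184 and 2503 in wildtype run 1. Its difference was 0.76 ± 0.06 in knockout libraries (limma adjusted p = 3.18e-06) and 0.93 ± 0.06 in wildtype libraries (adjusted p = 5.88e-07). Tpi1, Gapdh, Pgk1, Eno1 and Pkm moved by less than Pgam1 and by more in wildtype than in knockout libraries, though no such contrast between labels passed the interaction test given below. Tpi1 (triose phosphate isomerase), Gapdh, Pgk1 (phosphoglycerate kinase), Eno1 (the widely expressed enolase) and Pkm (pyruvate kinase) had log2 differences of 0.51, 0.50, 0.37, 0.40 and 0.41 in knockout libraries. In wildtype libraries the differences were 0.84, 0.70, 0.51, 0.56 and 0.57. Thus each of the 5 stood between Pgam1 and 0 in both labels. Gapdh, often used to scale other genes, averaged 19024 ± 633 normalised counts in knockout run 2, against 13481 ± 954 in knockout run 1, and 15084 ± 507 in wildtype run 2, against 9254 ± 167 in wildtype run 1. Ldha, the subunit that favours lactate formation, averaged 8676 ± 183 in knockout run 2, against 6721 ± 349.5 in knockout run 1, and 8308 ± 317 in wildtype run 2, against 5315 ± 390.3 in wildtype run 1. The log2 difference of Ldha was 0.37 ± 0.07 in knockout libraries (limma adjusted p = 0.00141) and 0.65 ± 0.07 in wildtype libraries (adjusted p = 1.73e-05). Ldhb, the subunit best known from heart, had an interval of -0.35 to 0.11 in knockout libraries and -0.09 to 0.37 in wildtype libraries.

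**Figure D2:**
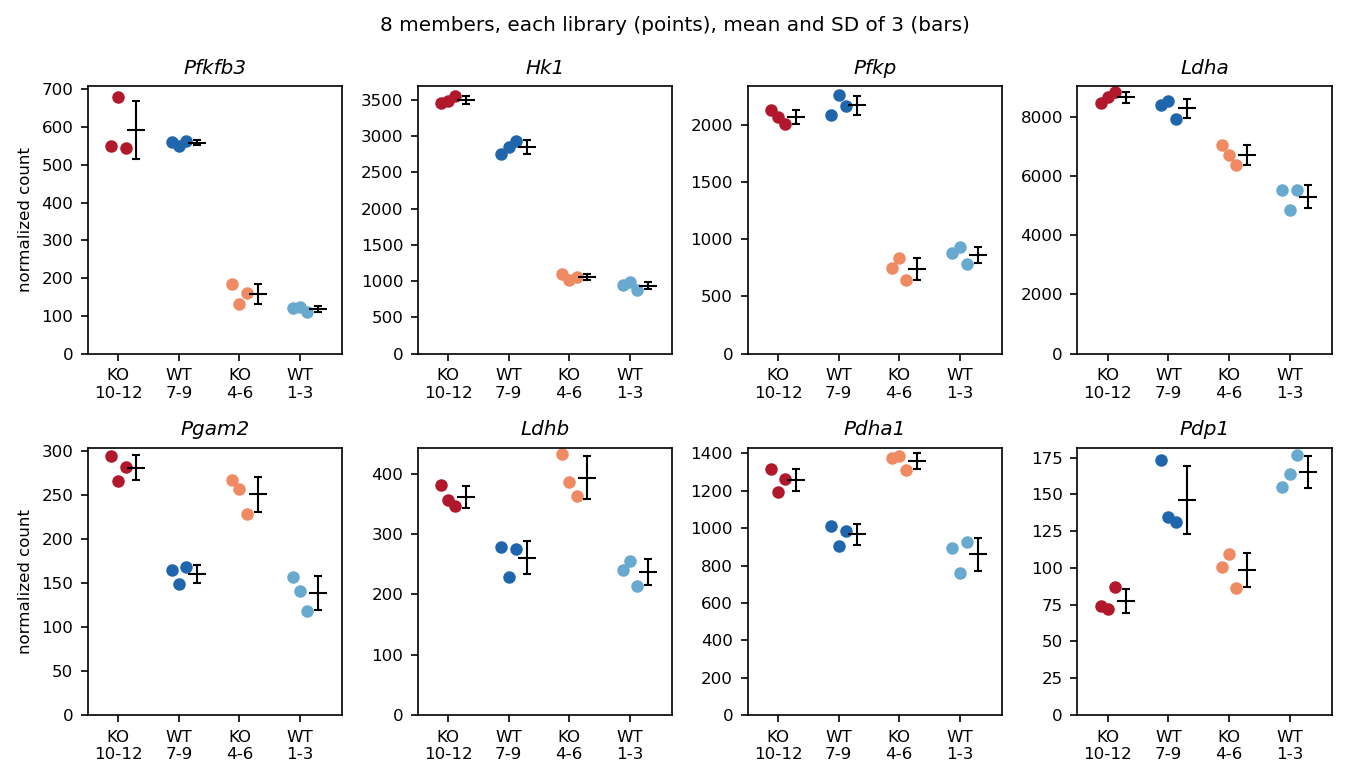
Normalised counts of 8 members (Pfkfb3, Hk1, Pfkp, Ldha, Pgam2, Ldhb, Pdha1 and Pdp1) in each library (points), with the mean and SD of 3 libraries (bars). Runs stand in the order knockout run 2, wildtype run 2, knockout run 1 and wildtype run 1 from left to right. For Pfkfb3, Hk1, Pfkp and Ldha the 6 points on the left are all above the 6 on the right. Pgam2, Ldhb and Pdha1 are higher, and Pdp1 is lower, in both knockout runs than in either wildtype run.

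Past pyruvate, no gene of the carrier or the pyruvate dehydrogenase complex passed as higher between runs. The classes were not tested against each other. Mpc1 and Mpc2, which together form the mitochondrial pyruvate carrier, had 95% intervals of -0.25 to 0.24 and -0.63 to 0.03 between runs in knockout libraries and -0.13 to 0.36 and -0.08 to 0.58 in wildtype libraries. The intervals of Pdha1 and Pdhb, the subunits of the decarboxylating component, were -0.29 to 0.06 and -0.31 to 0.21 in knockout libraries and 0.00 to 0.35 and -0.02 to 0.50 in wildtype libraries. Of these 8 intervals 7 include 0, and that of Pdha1 in wildtype libraries begins just above 0 without passing after adjustment. In wildtype libraries the intervals of Mpc2 and Pdhb reach up to the size of the Aldoa rise, so smaller rises may have been missed. In knockout libraries Dlat and Dld, the other catalytic components of the complex, passed as lower, with log2 differences of -0.46 ± 0.13 (limma adjusted p = 0.0227) and -0.24 ± 0.07 (adjusted p = 0.0365). Dlat missed the threshold without Myotube4, Myotube5, Myotube10 or Myotube12 (adjusted p = 0.0511 to 0.0935), and Dld in 7 settings, including the sets without Myotube4, Myotube5, Myotube6, Myotube7, Myotube11 or Myotube12 (adjusted p = 0.0508 to 0.145). Pdp1 had an interval of -0.66 to -0.02 in knockout libraries and -0.50 to 0.13 in wildtype libraries and did not pass in either. Gpd1 and Gpd2, which pass electrons from NADH to the respiratory chain through glycerol 3-phosphate, passed in neither label (intervals of -0.58 to 0.19 and -1.13 to 0.34 in knockout libraries, -0.60 to 0.17 and -0.99 to 0.48 in wildtype libraries).

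**Figure D3:**
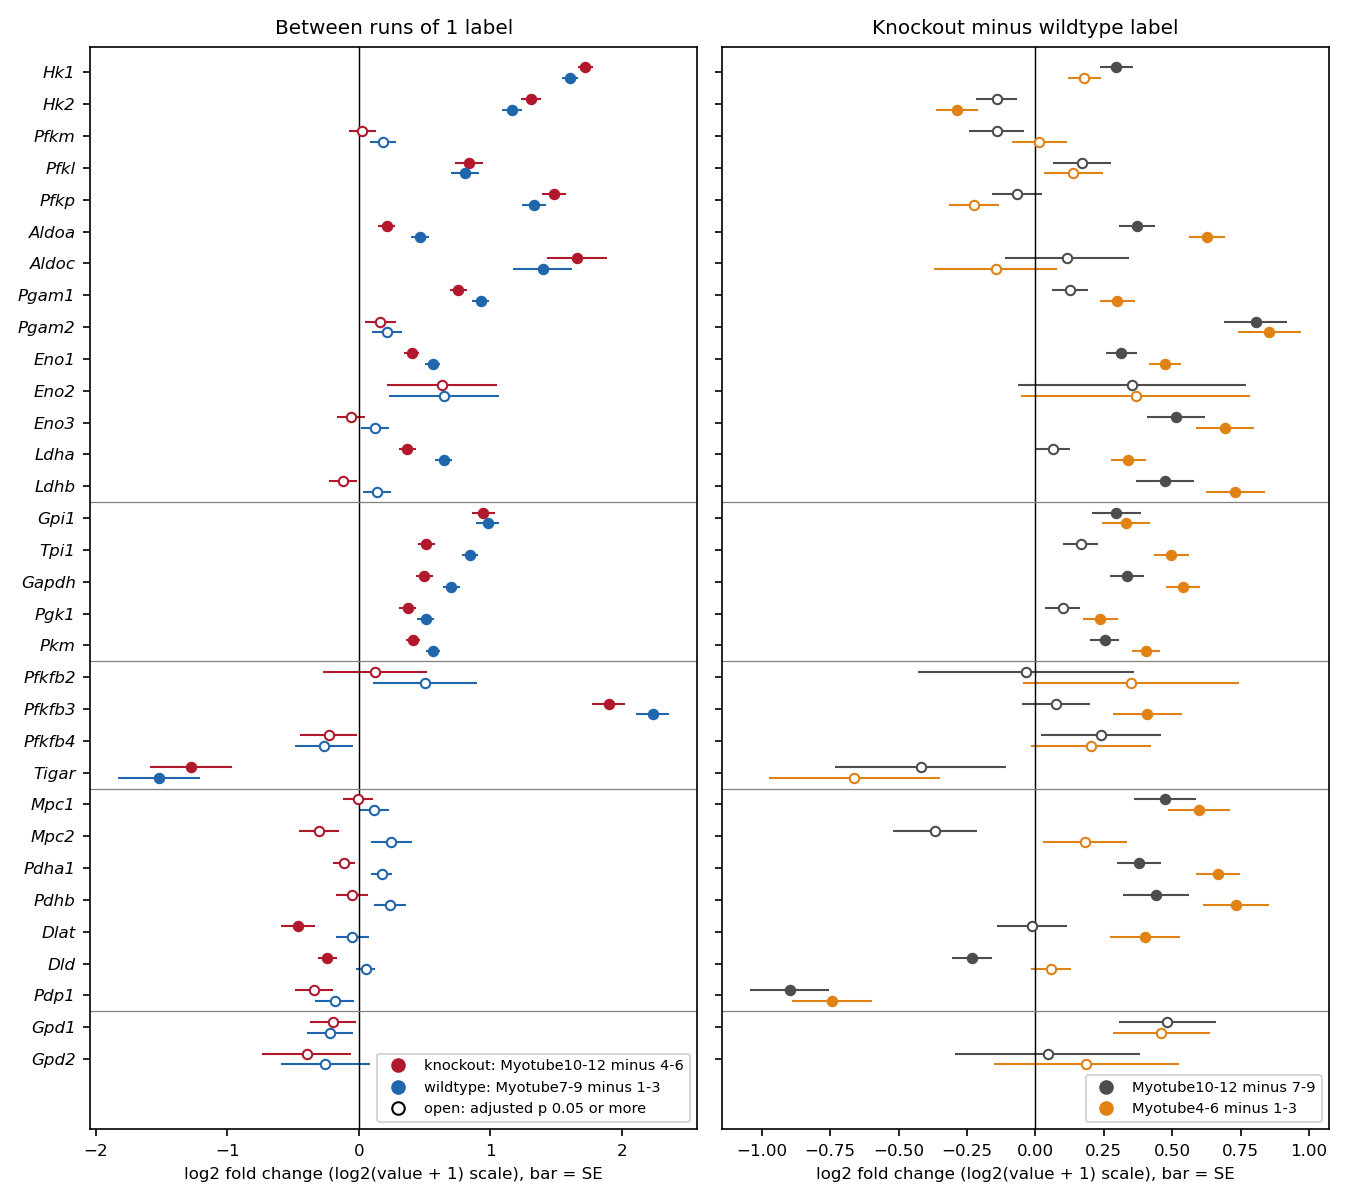
Log2 difference of each member with its SE (bars), for run 2 minus run 1 in knockout and wildtype libraries (left) and for knockout minus wildtype within each pair of runs (right). Filled points passed an adjusted p of 0.05 and open points did not. The 15 members that rose between runs are filled for both labels on the left, and no gene of pyruvate entry is filled above 0 there, while on the right Pgam2, Eno3, Ldhb, Pdha1, Pdhb and Mpc1 are filled above 0 and Pdp1 below 0 in both pairs of runs.

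Knockout and wildtype libraries were then compared within run 2 and within run 1, and over the mean of both, which is the comparison the labels give. Over the mean, 17 members were higher in knockout libraries and 2 were lower (Hk2 and Pdp1), next to 16.2% of all genes higher and 14.5% lower. Within run 2, 12 were higher and 2 lower (all genes 8.84% and 7.64%), and within run 1, 17 were higher and 2 lower (10.8% and 7.97%). The median log2 difference over the members was 0.23, against -0.0015 over all genes. The split depended on the scaling. With quantile normalisation the count over the mean was 7 higher and 6 lower (all genes 14.5% and 14.4%), and with totals that leave out the most abundant genes it was 11 higher and 6 lower (all genes 8.31% and 27.3%), with the median of all genes at -0.16 on the log2 scale. Over the mean, the rises of Pgam2, Eno3, Ldhb, Pdha1, Pdhb and Mpc1 and the fall of Pdp1 passed under all 25 alternative settings. Within run 1 the same 7 passed in all 23 alternatives, and within run 2 only Pgam2 and Pdp1 did. In run 2 Pdhb missed the threshold in 7 alternatives, Mpc1 in 3, Pdha1 in 2, and Eno3 and Ldhb in 1 each. The 7 genes, with Aldoa, were the members whose 6 knockout libraries did not overlap the 6 wildtype libraries (all genes 7.07% higher and 5.38% lower). Within run 2 the labels did not overlap for 15 members that were higher and 4 that were lower (all genes 21% and 19.2%), and within run 1 for 17 and 3 (18% and 16.5%).

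Markers of muscle fibres moved with the label. Of 12 myotube markers, 7 were higher and 3 lower in knockout libraries. Acta1, the skeletal actin, was higher, at 8702 to 10060.2 normalised counts in knockout libraries and 3547 to 5067 in wildtype libraries. Myh1 was lower, at 379 to 472 in knockout libraries and 652 to 1098 in wildtype libraries. The 4 myoblast markers summed to 203 to 302 in knockout libraries and 329 to 472 in wildtype libraries, and 2 of the 4 were lower. All 3 markers of dividing cells (summed level 2128 to 2466 in knockout libraries and 1289 to 2247 in wildtype libraries) and 3 of 4 endothelial markers (1129.7 to 1403 and 827 to 962) were higher. Of 6 fibroblast markers 1 was higher and 2 were lower, and of 5 leukocyte markers the 1 that could be tested did not pass. The part of these shifts in the label results was not tested. Between runs of 1 label the 12 myotube markers gave no call in knockout libraries, and in wildtype libraries Acta1 was higher in run 2 (0.39) and Myog lower (-0.64, log2). Of the 4 endothelial markers Pecam1 was higher in run 2 of both labels (0.31 in knockout and 0.44 in wildtype libraries), and of the 3 markers of dividing cells Ccnb1 was lower in both (-0.81 and -1.24). Of the 4 myoblast markers Vcam1 was lower in knockout libraries (-0.67) and Myod1 in wildtype libraries (-0.70), and of the 6 fibroblast markers Col1a1 was higher in knockout libraries (0.49) and Lum lower in wildtype libraries (-0.71). The part of these shifts in the run results was not tested.

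The largest label difference among the risers was that of Pgam2 (ENSMUSG00000020475, chromosome 11, 5801640 to 5803733 on GRCm38), the muscle phosphoglycerate mutase, which had shown no call between runs. Pgam2 had 294, 266 and 282 normalised counts in knockout run 2, against 164, 149 and 168 in wildtype run 2, and 267, 256 and 229 in knockout run 1, against 157, 141 and 119 in wildtype run 1. The knockout libraries of either run stood above all wildtype libraries, with a log2 difference of 0.83 ± 0.08 over both runs (limma adjusted p = 1.13e-05). Eno3, the muscle enolase, and Ldhb followed the same pattern. Eno3 had 2386, 2382 and 2358 normalised counts in knockout run 2, against 1898, 1496 and 1626 in wildtype run 2, and 2824, 2373 and 2252 in knockout run 1, against 1732, 1467 and 1401 in wildtype run 1. Ldhb had 382, 356 and 346 normalised counts in knockout run 2, against 278, 229 and 275 in wildtype run 2, and 433, 386 and 363 in knockout run 1, against 241, 256 and 214 in wildtype run 1. Eno3 differed by 0.60 ± 0.07 over both runs (limma adjusted p = 6.88e-05) and Ldhb by 0.60 ± 0.08 over both runs (limma adjusted p = 7.34e-05).

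Of the genes of pyruvate entry, Pdha1, Pdhb and Mpc1 were higher in knockout libraries. Pdha1 and Pdhb encode both subunits of the first component of pyruvate dehydrogenase, and Mpc1 a subunit of the carrier. Pdha1 had 1316, 1194 and 1263 normalised counts in knockout run 2, against 1012, 906 and 984 in wildtype run 2, and 1375, 1388 and 1312 in knockout run 1, against 892, 759 and 927 in wildtype run 1. Pdhb had 601, 618 and 565 normalised counts in knockout run 2, against 497, 382 and 441 in wildtype run 2, and 663, 589.7 and 599 in knockout run 1, against 419, 308 and 394 in wildtype run 1. Mpc1 had 226, 187 and 208 normalised counts in knockout run 2, against 160.0, 144 and 141 in wildtype run 2, and 223, 210.3 and 189.9 in knockout run 1, against 133, 129 and 149 in wildtype run 1. In each of the 3 genes every knockout library exceeded every wildtype library. The log2 differences over both runs were 0.52 ± 0.06 for Pdha1 (limma adjusted p = 2.47e-05), 0.59 ± 0.09 for Pdhb (adjusted p = 0.00023) and 0.54 ± 0.08 for Mpc1 (adjusted p = 0.000283). Pdp1 (ENSMUSG00000049225, chromosome 4, 11958184 to 11966452 on GRCm38), the phosphatase that activates the same complex, was the member with the largest fall. Pdp1 had 74.1, 72.1 and 86.8 normalised counts in knockout run 2, against 173, 134 and 131 in wildtype run 2, and 101, 109 and 86.1 in knockout run 1, against 155, 164 and 177 in wildtype run 1. All 6 knockout values were below the wildtype range, and the log2 difference was -0.82 ± 0.10 over both runs (limma adjusted p = 7.4e-05). Mpc2, Dlat and Dld did not pass over both runs, with 95% intervals of -0.33 to 0.14, -0.00 to 0.39 and -0.20 to 0.03.

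Aldoa, the most abundant of the muscle forms per kilobase, was also higher in knockout libraries. Aldoa had 12917, 12420.5 and 12634 normalised counts in knockout run 2, against 10264, 9716 and 9373 in wildtype run 2, and 11778, 10661 and 10390.5 in knockout run 1, against 7611, 6785 and 6866 in wildtype run 1. The log2 difference was 0.50 ± 0.05 over both runs (limma adjusted p = 7.37e-06). It missed the threshold in 1 alternative, quantile normalisation, with a log2 difference of 0.11 (limma adjusted p = 0.103). Hk1, Gpi1, Tpi1, Gapdh, Pgk1, Pgam1, Eno1, Pkm and Ldha, which had risen between runs, were higher by 0.17 to 0.44 on the log2 scale, but quantile normalisation left none of the 9 as a rise and turned 7 of them round (all but Hk1 and Gpi1). With Aldoa they make, at the deposited scaling, 10 members that were higher both between runs and between labels, against 1.39% of all genes. Pgam2, Eno3, Ldhb, Pdha1, Pdhb, Mpc1 and Gpd1 make 7 members with a higher level by label and no call between runs, against 10.9% of all genes. The 13 members that did not pass over the mean included all 4 regulators, with Pfkfb3 at an adjusted p of 0.0548 by limma, and all 3 phosphofructokinase subunits. Pfkfb3 passed as higher in 6 alternatives (adjusted p = 0.0131 to 0.0481): a minimum mean of 50, edgeR or DESeq2 on the recovered reads, and without Myotube2, without Myotube5 or without both Myotube2 and Myotube10. Others of the 13 also passed in some alternatives. Pfkp was lower in 3 (limma adjusted p = 0.00295 to 0.0351), Tigar and Dld were lower in 2 each and Pfkm in 1, and Dlat was higher in 2. Gpd1, the cytosolic glycerol phosphate dehydrogenase, differed by 0.47 ± 0.13 over both runs (limma adjusted p = 0.0128) and missed the threshold in 1 alternative, totals that leave out the abundant genes. Within either run alone Gpd1 did not pass, except in 2 alternatives that leave out Myotube2.

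A pair of members had opposite calls in different comparisons. Hk2, which rose in run 2 of both labels, was lower in knockout libraries, at 907, 896 and 873 in knockout run 2 against 985, 943 and 1024 in wildtype run 2 and 363, 355 and 359 in knockout run 1 against 401, 485 and 433 in wildtype run 1. The label difference of -0.21 ± 0.05 over both runs (limma adjusted p = 0.00904) was much smaller than its difference between runs and missed the threshold without a term for the run. Dlat, the acetyltransferase component of pyruvate dehydrogenase, was lower in run 2 of the knockout libraries and higher in knockout than in wildtype libraries within run 1. Dlat had 255, 367 and 312 normalised counts in knockout run 2, against 326, 284 and 325 in wildtype run 2, and 443, 463 and 375 in knockout run 1, against 342, 305 and 319 in wildtype run 1. The run 1 label difference was 0.40 ± 0.13 (limma adjusted p = 0.0454) and missed the threshold in 13 alternative settings, including the sets without Myotube1, Myotube2, Myotube3, Myotube4, Myotube5, Myotube7, Myotube8, Myotube9 or Myotube12 (adjusted p = 0.0522 to 0.19). Knockout run 1 held the highest values of Dlat and takes part in both calls.

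No member passed the test of the interaction, which asks whether the difference between runs depends on the label. At an unadjusted p of 0.05, 8 of the 32 passed, next to 8.52% of all genes. They were 4 of the 7 genes of pyruvate entry and 4 of the 19 glycolytic enzymes. At an adjusted p of 0.05, edgeR and DESeq2 on the recovered reads also gave 0 members. Of all genes, limma called 1 (0.00797%), edgeR 0 and DESeq2 31. Among members the difference between runs in knockout libraries minus that in wildtype libraries was -0.33 for Pfkfb3 (95% interval -0.72 to 0.05), -0.33 for Tpi1 (-0.53 to -0.13, limma adjusted p = 0.541) and 0.12 for Hk1 (-0.07 to 0.30), on the log2 scale. Pfkm, Eno2, Pfkfb2, Pfkfb4, Mpc2 and Gpd2 passed in none of the comparisons.

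Because the forms of an enzyme differ in regulation and kinetics, each form was expressed as a share of the summed level per kilobase of its family, in each library. These shares are a description and were not tested. The mix of phosphofructokinase subunits differed between runs. Pfkp held 42.6% ± 1.69 in knockout run 2, against 27.1% ± 3.28 in knockout run 1, and 44.5% ± 1.54 in wildtype run 2, against 31.2% ± 1.11 in wildtype run 1 (mean ± SD, n = 3 each). Pfkm held 21.4% ± 0.577 in knockout run 2, against 37.3% ± 2.22 in knockout run 1, and 23.6% ± 3.09 in wildtype run 2, against 36.6% ± 2.42 in wildtype run 1. The run means of Pfkl lay between 31.9% and 36.0%. The platelet form led in run 2 of both labels and the muscle form in run 1, though with the union of all exons as length, an alternative chosen after seeing the data, Pfkp led in no run. Hk1 held 85.2% ± 0.439 of the hexokinase level in knockout run 2, against 81.3% ± 0.454 in knockout run 1, and 81.0% ± 0.612 in wildtype run 2, against 75.9% ± 1.61 in wildtype run 1, with Hk2 making up the rest. Among the listed bifunctional enzymes Pfkfb3 held 84.8% ± 3.49 and 85.4% ± 0.187 in run 2 of knockout and wildtype libraries, against 58.6% ± 7.07 and 56.2% ± 9.49 in run 1.

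The shares of the muscle forms of the lower pathway differed with both the run and the label. Pgam2 held 10.6% ± 0.777 of the phosphoglycerate mutase level in knockout run 2, against 6.88% ± 0.527 in wildtype run 2, and 15.1% ± 0.804 in knockout run 1, against 10.8% ± 1.53 in wildtype run 1. Eno3 held 27.8% ± 0.802 in knockout run 2, against 25.1% ± 2.47 in wildtype run 2, and 34.6% ± 2.37 in knockout run 1, against 31.3% ± 2.96 in wildtype run 1. The share of either gene was smaller in run 2, where its widely expressed partner (Pgam1 or Eno1) was higher, and its mean was larger in knockout libraries of the same run, for Eno3 by no more than about the SD. Ldhb held 5.09% in knockout run 2, 3.89% in wildtype run 2, 7.0% in knockout run 1 and 5.45% in wildtype run 1. Mpc1 held 72.1% and 59.0% in run 2 of knockout and wildtype libraries, and 67.8% and 61.2% in run 1. Aldoa held over 99% of the aldolase level in every library. The transcript length used for each gene moves these shares: with the union of all exons Pfkm held 35.2%, 38.6%, 52.6% and 52.8% and Eno3 46.1%, 42.7%, 54.1% and 50.2% in knockout run 2, wildtype run 2, knockout run 1 and wildtype run 1.

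**Figure D4:**
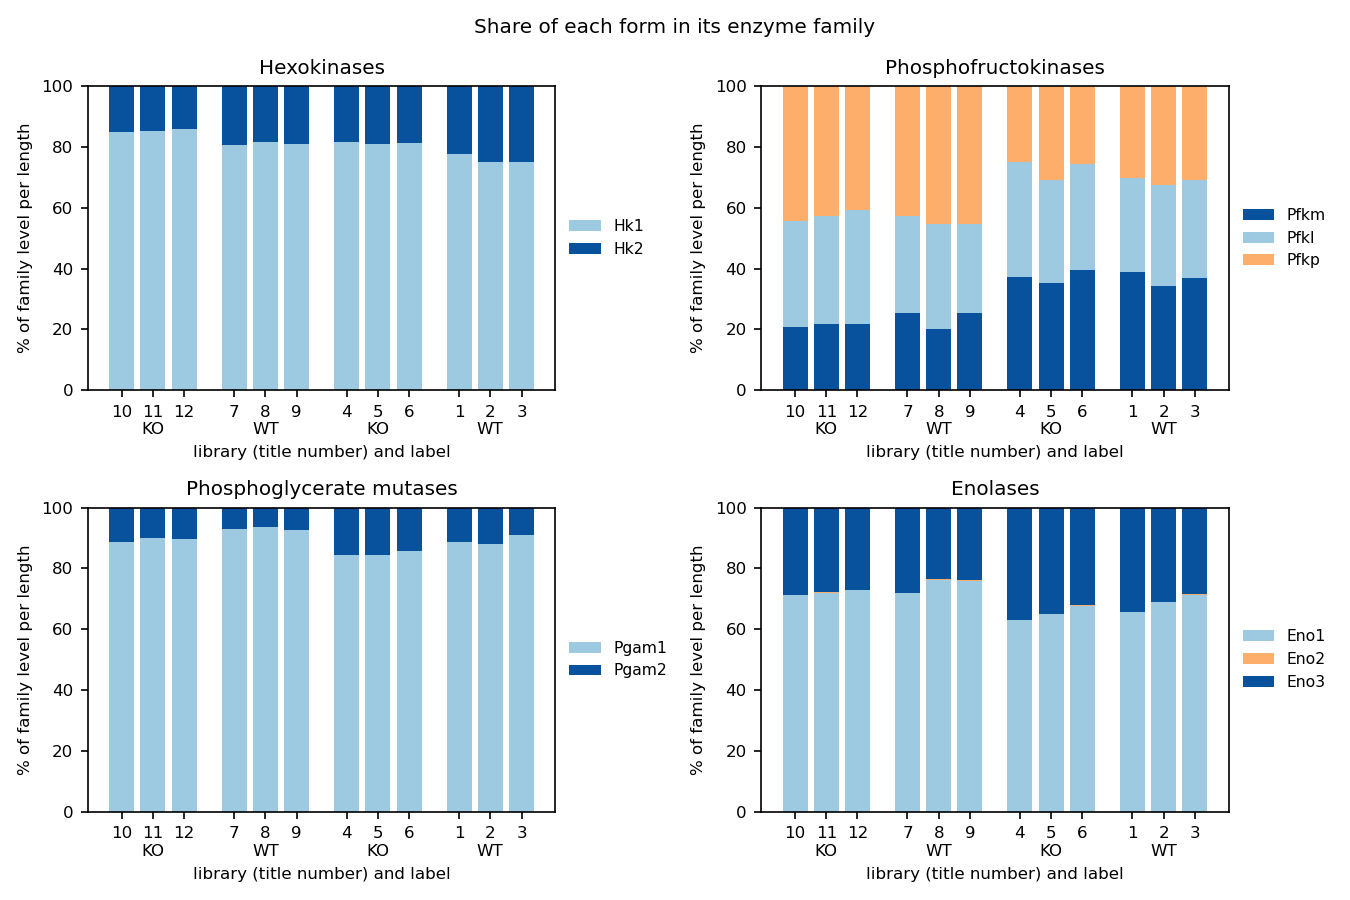
Share of each form (percent of the summed normalised counts per kb of its family) in each library, with knockout run 2, wildtype run 2, knockout run 1 and wildtype run 1 from left to right. Pfkp takes a larger share in Myotube7 to Myotube12 and Pfkm a smaller one, and Pgam2 takes a larger share in knockout than in wildtype libraries of the same run.

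Other genes around the pathway came from a list of 48, of which 45 were in the table and 39 reached the minimum level. In knockout libraries 12 were higher and 2 lower in run 2 (all genes 11.2% and 7.89%), and in wildtype libraries also 12 and 2 (9.79% and 6.96%). The 11 that rose in both included the glucose transporters Slc2a1 and Slc2a3, the lactate transporters Slc16a1 and Slc16a3, the pyruvate dehydrogenase kinases Pdk1 and Pdk3, Pgm1, Bpgm, Pgp and Tkt. Hif1a, which encodes an oxygen-regulated subunit of the hypoxia-inducible factors, was lower in both. Slc2a3 had the largest rise. Slc2a3 had 538, 576 and 559.8 normalised counts in knockout run 2, against 43.7, 59.7 and 50.6 in knockout run 1, and 511, 618 and 507 in wildtype run 2, against 51.1, 80.5 and 41.1 in wildtype run 1. Its log2 difference was 3.43 ± 0.20 in knockout libraries (limma adjusted p = 1.14e-07) and 3.27 ± 0.20 in wildtype libraries (adjusted p = 2.13e-07). Slc2a1, the widely expressed transporter, differed by 2.55 ± 0.07 in knockout libraries (limma adjusted p = 9.28e-11) and 2.76 ± 0.07 in wildtype libraries (adjusted p = 4.62e-11), and lay at 3168 to 3554 in knockout run 2 against 549 to 588 in knockout run 1 and at 3457 to 3514 in wildtype run 2 against 475 to 553 in wildtype run 1. Both transporters were above their run 1 range in each library of run 2. Pdk1, a kinase that switches pyruvate dehydrogenase off, differed by 1.3 ± 0.08 in knockout libraries (limma adjusted p = 2.03e-07) and 1.56 ± 0.08 in wildtype libraries (adjusted p = 5.54e-08). Pdk1 had 1178, 1241 and 1277 normalised counts in knockout run 2, against 533, 457 and 508 in knockout run 1, and 1214, 1167 and 1138 in wildtype run 2, against 386, 439.8 and 373 in wildtype run 1.

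By label, 6 of the 39 genes were higher in knockout libraries (Pdk1, Pdp2, Got2, Mdh2, Pgls and Pgd) and 3 were lower (Slc2a4, Pdk4 and Slc25a12), shares no larger than the 16.2% and 14.5% of all genes. Slc2a4, the insulin-responsive glucose transporter of muscle, differed by -1.47 ± 0.26 over both runs (limma adjusted p = 0.00103), at 31.5 to 72.1 in knockout run 2 against 80.7 to 145 in wildtype run 2 and 17.4 to 37.9 in knockout run 1 against 66.9 to 122 in wildtype run 1. Pdk4, the pyruvate dehydrogenase kinase that fasting is known to induce, differed by -0.88 ± 0.19 (adjusted p = 0.00343). Of the kinases of the complex, Pdk1 was thus higher and Pdk4 lower in knockout libraries over both runs. Pdk1 passed within run 1 (0.32, limma adjusted p = 0.0157) but not within run 2 (0.07, adjusted p = 0.625). Pdk4 passed within run 2 and not within run 1.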

How the data were processed

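Stranded total RNA libraries of 12 myotube samples were analysed. The authors deposited a signal per gene, their normalised counts. Per the submitters' processing notes, Trimmomatic 0.33, STAR 2.5.2, RSEM 1.3.3, DESeq2 and build mm10 were used. No source used here names the counting annotation. Each deposited column is whole reads divided by 1 factor (100% of values whole within 1e-06 reads), so read counts could be recovered. A few abundant genes held much of each library, which lowers the depth of the members.

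The test was written for normalised values and was kept: two-sided limma 3.58.1 (trended prior, log2(normalised count + 1), 1 mean per run, all 12 libraries), adjusted by Benjamini-Hochberg over the 12553 genes whose mean reached 10. Fold changes on this scale understate those of low genes. edgeR 4.0.16 and DESeq2 1.42.0 (R 4.3.3) on the recovered reads, other scalings, filters and left-out libraries were alternatives. Scripts were tested on simulated data. GENCODE M21 named 19953 of 20201 identifiers and gave transcript lengths, and promoter windows came from RefSeq GRCm38.p6. Groups follow the genotype label and runs follow the titles. Members, classes, runs, marker lists and tests were chosen with earlier results of these data known. Per-library values are given for the 8 largest rises and the falls called in both run comparisons, the 8 largest label differences, opposite calls, and the pathway genes with the largest changes called in both runs, of which 1 is not reported here. Values for other genes illustrate a class.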

Additional observations from a re-analysis of the deposited data

Results flagged for a closer look

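For each member the 6 libraries of a label were searched for a value far from the others, 64 groups in all. In 2 of them the extreme value was separated by more than the 95% critical gap. Among libraries that differ only at random, about 1 in 20 groups would exceed it. Each group here joins 2 runs, which lie apart for many members, so that rate need not hold. Eno3 in Myotube4, a knockout library, was high at 2824 normalised counts. Pfkfb2 in Myotube2, a wildtype library and one of the shallowest, was low at 13.9 normalised counts.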

How the results depend on the processing

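Between wildtype runs no member changed its call under any alternative in which it was tested, and between knockout runs 26 of 731 recomputed values missed the threshold that the reported value passed, with no reversal. The label comparisons depended on scaling. Members called over the mean of both runs were 9 without a term for the run, against 19. Totals without the abundant genes put the median of all genes at -0.11 between knockout runs and -0.09 between wildtype runs. Within run 2, 7 were called under quantile normalisation and 7 with totals that leave out the abundant genes, against 14, and within run 1, 10 under quantile normalisation, against 19. Quantile normalisation also gave values of the opposite sign, or 0 for Eno1 within run 1: over the mean Eno1 -0.016, Gapdh -0.010, Ldha -0.21, Pgam1 -0.094, Pgk1 -0.14, Pkm -0.088, Tpi1 -0.00068; within run 2 Eno1 -0.031, Gapdh -0.11, Gpi1 -0.044, Ldha -0.30, Pkm -0.19; within run 1 Eno1 0.0, Ldha -0.11, Pgk1 -0.082 (log2). Ldha within run 2 had not passed at the deposited scaling. The cause was not tested. Leaving out 1 library at a time gave 14 to 18 members called between knockout runs, 16 to 16 between wildtype runs, 10 to 16 by label in run 2, 14 to 20 by label in run 1, 19 to 21 over the mean and 0 to 0 for the interaction. Leaving out Myotube2 and Myotube10 together, chosen after seeing the data, gave 16, 16, 16, 21, 21 and 0 in the same order. No paired analysis was possible because the titles number the libraries 1 to 12 and share no number. Depth limits Eno2, Pfkfb2, Tigar and Aldoc most.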
